A study of Mus musculus with 5 samples.

Results

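The D-type cyclins, their kinase partners and the inhibitors that hold these kinases back were followed in 5 single-cell RNA-seq libraries of mouse bone marrow. The group comprises 10 of the 15287 genes in the count table, chosen by name: the cyclins Ccnd1, Ccnd2 and Ccnd3, the kinases Cdk4 and Cdk6, the CIP/KIP inhibitors Cdkn1a (p21), Cdkn1b (p27) and Cdkn1c (p57), and the INK4 inhibitors Cdkn2c (p18) and Cdkn2d (p19). All 10 were present in the table. All cells came from untreated mice, 20 weeks old, that carried one Fgd5CreERT2 and one Rosa26Tomato allele, so no group lacked either allele. The first population was Lin-kit+ cells, a mixture of progenitors without mature lineage markers and positive for the receptor Kit, in 3 libraries called a, b and c. The second was reporter-positive Lin-kit+ cells, in which ZsGreen and the CreERT2 recombinase are made from the knocked-in locus of the stem cell gene Fgd5, in 2 libraries: Fgd5+, and HSC-Fgd5+, which was also sorted for Sca1 and CD150 and against CD48.

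Passage through G1 is set by D cyclins bound to CDK4 or CDK6, which phosphorylate the retinoblastoma protein and so release E2F factors to switch on S phase genes. INK4 proteins bind CDK4 and CDK6 directly, whereas CIP/KIP proteins bind cyclin-CDK complexes and above all restrain CDK2. Hematopoietic stem cells (HSCs) are mostly quiescent, and p57 and p27 are known as inhibitors that help to keep them so.

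The barcode suffixes in the table name no sample, and libraries were matched to populations through their cell numbers, so every population difference rests on that match. The sample titles and source labels disagree on which reporter-positive sample had the HSC gate. The libraries held 519 to 6147 cells, 2166655 to 36080242 unique molecular identifiers (UMIs, each 1 captured transcript) and a median of 3721 to 6567 UMIs per cell. Levels are given as CPM, the standard per-library scaling of the UMIs of a gene by all UMIs of its library. UMIs are counted at transcript ends and are not scaled by length, and capture can differ between genes. Tests used counts summed per library, so n counts libraries, except in the fits with several cell classes or clusters per library. No source used here says whether the libraries came from separate mice. Of 12830 distinct barcodes, 62 occurred in more than 1 library. Stem cell markers went with the match: Slamf1 (CD150) stood at 35.7 and 38.3 CPM in the reporter-positive libraries and at 1.90 to 3.37 CPM in Lin-kit+, and Cd48 at 6.24 and 1.85 against 188 to 199 CPM. Fgd5 was at 6.0 and 10.2 CPM against 1.10 to 1.71 CPM. Of the UMIs of 8 neutrophil markers in reporter-positive cells, 5028 of 5117 lay in 1 cell of the Fgd5+ library, and the list summed to 6.92 CPM in HSC-Fgd5+. Markers of more mature cells went both ways. The granulocyte-monocyte progenitor list summed to 21717 to 23260 CPM in Lin-kit+ and to 1322 and 1108 CPM in the reporter-positive libraries, the monocyte list to 1119 to 1167 against 86.4 and 52.2 CPM, and the mast cell and basophil list to 1352 to 1561 against 139 and 165 CPM. The erythroid list was higher in reporter-positive cells, at 2036 and 2114 against 577 to 738 CPM, as was the megakaryocyte list, at 386 and 254 against 145 to 189 CPM. The part of these lists in the differences between populations was not tested. In such sums, fewer cells of a type and less RNA per cell cannot be told apart. A cluster with 188 cells of library a and 1 cell of the Fgd5+ library stood apart. Without it the number of members called stayed at 8, 6, 6 and 4 in the comparisons below, except that it was 6 in place of 7 among cells without division transcripts.

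Reporter-positive cells differed from Lin-kit+ cells in 8 of the 10 regulators. In the fit, Cdkn1c, Ccnd2, Ccnd1 and Cdkn1b were higher and Cdk6, Cdkn1a, Cdk4 and Cdkn2d were lower, while Ccnd3 and Cdkn2c did not pass the test (edgeR quasi-likelihood test with Benjamini-Hochberg adjustment over 11991 genes, threshold 0.05). The background was wide, since 32.7% of all genes tested were called higher and 30.4% lower, so the count of members called is read against these shares.

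**Figure D1:**
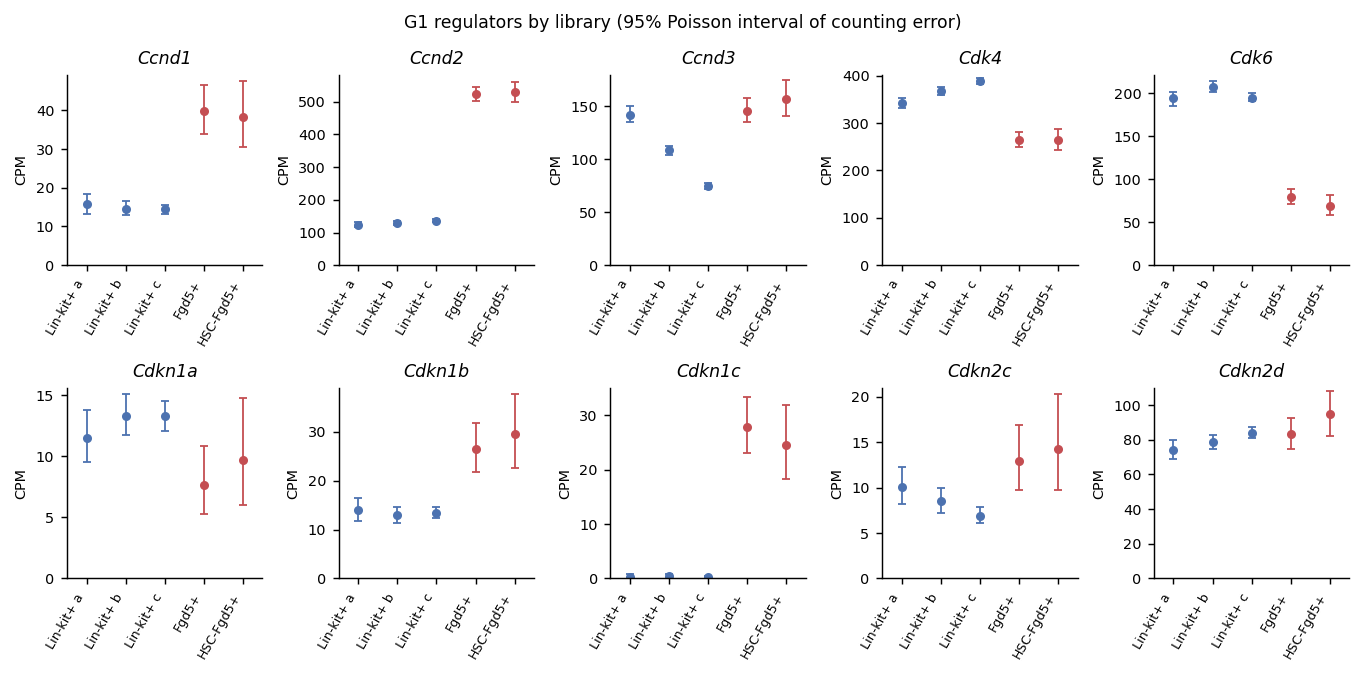
Level of each gene in the 5 libraries in CPM (vertical axes from 0). Points are libraries, blue for Lin-kit+ and red for reporter-positive, and bars are 95% Poisson intervals that cover counting error only. Cdkn1c lies between 0.277 and 0.375 CPM in Lin-kit+ and at 24.5 and 27.8 CPM in the reporter-positive libraries.

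Among the D cyclins, Ccnd2 gave the most UMIs in reporter-positive cells. It stood at 123, 130 and 136 CPM in Lin-kit+ libraries a, b and c and at 523 and 530 CPM in Fgd5+ and HSC-Fgd5+. The groups did not overlap, and the log2 fold change was 1.48 (SE 0.07, edgeR adjusted p = 5.93e-06). Ccnd1 gave fewer UMIs, at 15.7, 14.6 and 14.4 CPM against 39.8 and 38.3 CPM, also without overlap. Its log2 fold change was 0.86 (SE 0.11, edgeR adjusted p = 0.000411).

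Ccnd3 varied among the Lin-kit+ libraries themselves. It measured 142, 109 and 75.0 CPM in a, b and c, and 146 and 157 CPM in Fgd5+ and HSC-Fgd5+. The highest Lin-kit+ library thus held 1.90 times the lowest, against 1.09 times for Ccnd1 and 1.10 times for Ccnd2, and of 4824 genes with at least 1000 Lin-kit+ UMIs, 3.59% spread at least as widely. Both reporter-positive values lay above all 3 Lin-kit+ values, but the fit, which corrects for the composition of the libraries, gave -0.06 (SE 0.25, edgeR adjusted p = 0.863). Library c was the lowest of the 3 in 8 of 8 named cell classes, and library a the highest in 6. Bysl, the ribosome assembly gene that overlaps Ccnd3 on the opposite strand, stayed between 21.6 and 23.8 CPM in the same libraries. The cause of the Ccnd3 spread was not tested.

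Both kinases were lower in reporter-positive cells, Cdk6 by more than Cdk4. Cdk6 stood at 194, 207 and 195 CPM in Lin-kit+ and at 79.6 and 69.2 CPM in the reporter-positive libraries. All Lin-kit+ values exceeded both others, with a log2 fold change of -1.94 (SE 0.10, edgeR adjusted p = 7.81e-06). Cdk4 measured 343, 368 and 389 CPM against 265 and 265 CPM. The groups again did not overlap, and the log2 fold change was -1.0 (SE 0.08, edgeR adjusted p = 4.28e-05). Within its own kinase pair Cdk6 gave 35.2% ± 1.51 (SD, n = 3) of UMIs in Lin-kit+ and 21.9% ± 1.68 (SD, n = 2) in reporter-positive cells.

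Because both kinases were lower together, their promoters were read from RefSeq (GRCm38.p6), whose table matched 7 of the 10 genes. Each line gives the 250 bases before the annotated start, 5′ to 3′, with the palindromic E-box CACGTG, the site class bound by MYC and related factors, in capitals. Cdk4 lies at chr10:127063285-127063534 and Cdk6 at chr5:3343643-3343892, both on the + strand.

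Cdk4: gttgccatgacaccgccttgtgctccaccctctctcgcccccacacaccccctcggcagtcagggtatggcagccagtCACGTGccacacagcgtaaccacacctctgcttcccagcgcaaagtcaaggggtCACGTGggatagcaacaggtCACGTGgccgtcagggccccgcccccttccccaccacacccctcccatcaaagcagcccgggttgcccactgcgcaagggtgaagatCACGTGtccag

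Cdk6: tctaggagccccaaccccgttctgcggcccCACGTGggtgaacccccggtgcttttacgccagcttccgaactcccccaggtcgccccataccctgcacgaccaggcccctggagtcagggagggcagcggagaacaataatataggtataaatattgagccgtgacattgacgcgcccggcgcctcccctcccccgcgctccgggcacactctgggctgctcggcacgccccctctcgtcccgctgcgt

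The Cdk4 window held 4 copies, starting at positions -172, -118, -98 and -11 from the annotated start, and the Cdk6 window held 1, at -220. Of 32851 RefSeq promoter windows of this length, 6.02% held the hexamer and 7 (0.0213%) held 4 or more copies. The E2F-type strings TTTCCCGC and TTTGGCGC, present in 0.895% and 0.417% of windows, and the CHR string TTTGAA, present in 16.0%, were not found on either strand in the windows of the 7 matched genes. No motif overlaps another in the printed windows, and a match is a description of letters and not of binding.

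The largest difference was that of Cdkn1c, the p57 gene. It had 3, 7 and 10 UMIs in Lin-kit+ libraries a, b and c (0.300, 0.375 and 0.277 CPM) and 116 and 53 UMIs in Fgd5+ and HSC-Fgd5+ (27.8 and 24.5 CPM). No value of one population came near the other, and the log2 fold change was 5.84 (SE 0.22, edgeR adjusted p = 3.16e-06). A Cdkn1c UMI was found in 12.4% of Fgd5+ cells (95% Wilson interval 10.2 to 14.8) and 8.67% of HSC-Fgd5+ cells (6.54 to 11.4), at median depths of 4346 and 3721 UMIs. In neutrophil-like Lin-kit+ cells, with a median of 5128 UMIs, the share was 0.0399%. It was 0.485% in lymphoid-primed multipotent-like and 0.609% in megakaryocyte-like cells. After thinning every cell to 1000 UMIs the shares were 2.65% and 2.54% in Fgd5+ and HSC-Fgd5+. In Lin-kit+ a, b and c they were then 0.149%, 0.0734% and 0.0325%. Of the 20 Lin-kit+ UMIs, 8 lay in lymphoid-primed multipotent-like cells, 3 each in megakaryocyte-like, monocyte-like and granulocyte-monocyte progenitor-like cells, and 1 each in the 21 HSC-like, the neutrophil-like and the unnamed cells.

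The other CIP/KIP genes moved in opposite directions. Cdkn1b rose from 14.0, 13 and 13.5 CPM to 26.4 and 29.5 CPM, with a log2 fold change of 0.51 (SE 0.12, edgeR adjusted p = 0.00707), a call lost when every cell was thinned to 1000 UMIs (0.32, adjusted p = 0.38). Cdkn1a, the p53 target p21, was low throughout, at 11.5, 13.3 and 13.3 CPM against 7.68 and 9.69 CPM. The groups did not overlap, and its log2 fold change was -1.13 (SE 0.17, edgeR adjusted p = 0.00105). As shares of CIP/KIP UMIs, Cdkn1c rose from 1.20% ± 0.191 (SD, n = 3) to 41.7% ± 4.64 (SD, n = 2), while Cdkn1a went from 47.9% ± 2.88 to 13.8% ± 1.99.

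The INK4 genes had the fitted changes -0.37 and 0.16. Cdkn2d measured 74.3, 78.7 and 84.0 CPM in Lin-kit+ and 83.5 and 94.6 CPM in reporter-positive cells, so the groups overlapped. Its fitted log2 fold change of -0.37 (SE 0.09, edgeR adjusted p = 0.0101) is opposite in sign to these levels and became 0.17 (adjusted p = 0.162) when library totals replaced TMM scaling. The call was also lost without the Fgd5+ library (-0.30, adjusted p = 0.0664) and when thinned (-0.33, adjusted p = 0.0757). Cdkn2c stood at 10.1, 8.51 and 6.93 CPM against 13 and 14.3 CPM, with a log2 fold change of 0.16 (SE 0.21, edgeR adjusted p = 0.543). Under library totals Cdkn2c passed the test at 0.70 (adjusted p = 0.0216). That scaling moved the median of all genes from 0.07 to 0.60 and the share of calls that were higher from 51.8% to 76.8%. Relative to these medians, the 4 genes called higher and Cdk4, Cdk6, Cdkn1a and Cdkn2d kept their directions.

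The additional HSC gate made no difference that the counts could resolve. The ratio of HSC-Fgd5+ to Fgd5+ ran from 0.869 for Cdk6 (95% interval of counting error 0.712 to 1.06) to 1.26 for Cdkn1a (0.692 to 2.26), and all 10 intervals included 1. With 1 library on each side there was no replicate check. The narrowest interval was that of Ccnd2, at 1.01 (0.943 to 1.09).

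Genes around the G1 regulators were read from 4 lists. Of 30 G1/S partners tested, 6 were higher and 13 lower in reporter-positive cells, with a median log2 fold change of -0.29 against 0.07 over all genes. Ccne2, a cyclin E gene, was among the lower, at 37.6, 42.6 and 45 CPM against 8.16 and 8.31 CPM (log2 fold change -2.88, SE 0.14, edgeR adjusted p = 7.57e-06), as was the repressive E2F gene E2f8 (-2.51, SE 0.15). E2f6 was higher, but unevenly, at 28.8 and 12.9 CPM in Fgd5+ and HSC-Fgd5+ against 4.30 to 4.82 CPM. Of 15 p53 and FoxO partners, 6 were higher and 4 lower. Foxo1 and Foxo3, factors that act on Cdkn1b and Cdkn1a, were higher, Foxo1 at 15.4 and 14.3 CPM against 1.41 to 2.1 CPM (2.58, SE 0.23) and Foxo3 at 39.3 and 34.2 against 8.72 to 12.6 CPM (1.33, SE 0.18). The p53 targets went both ways. Sesn2 (1.69, SE 0.29, 159 UMIs) and Bbc3 (1.35, SE 0.25, 195 UMIs) were higher. So were Phlda3 (2.54, SE 0.61, 66 UMIs) and Trp53inp1 (1.31, SE 0.21, 205 UMIs), named after their values were seen. The 4 lower members, named after their values were seen, were the p53 targets Bax (-1.21, SE 0.08, 10515 UMIs), Btg2 (-1.30, SE 0.10, 2622 UMIs) and Aen (-0.70, SE 0.12, 2318 UMIs) and the p53 gene itself, Trp53 (-0.30, SE 0.08, 12769 UMIs). All 18 S phase genes and all 17 mitosis genes were lower, each list with a median of -1.52, among them Rrm2, a subunit of ribonucleotide reductase (-3.66, SE 0.14), Tk1 (-2.11, SE 0.10) and the replication licensing gene Cdc6 (-2.01, SE 0.17).

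The populations were compared again among cells without a UMI of Mki67 or Top2a, genes transcribed in dividing cells and called division transcripts here. Such UMIs were found in 58.9%, 50.3% and 55.9% of cells in Lin-kit+ a, b and c and in 16.6% and 14.8% of Fgd5+ and HSC-Fgd5+ cells. Cells with such a UMI were also deeper, with medians of 5280 to 8552 UMIs against 3568 to 4925. After thinning to 1000 UMIs the shares were 19.6%, 19.9% and 21.6% against 6.05% and 8.61%. Among cells without these UMIs, 7 of 10 regulators were called, where 31.7% of all genes were higher and 28.5% lower. Cdk6 was at 233, 233 and 213 CPM in Lin-kit+ and at 51.3 and 49.0 CPM in reporter-positive cells, a log2 fold change of -2.62 (SE 0.11, edgeR adjusted p = 4.46e-07). Ccnd2 (1.32, SE 0.08), Ccnd1 (0.81, SE 0.17) and Cdkn1c (5.59, SE 0.28) were again higher and Cdk4 (-1.05, SE 0.10) and Cdkn1a (-1.20, SE 0.23) lower. Cdkn1b was called at 0.52 (SE 0.19, edgeR adjusted p = 0.0392), a call lost without library b, c, Fgd5+ or HSC-Fgd5+ (adjusted p 0.0656 to 0.146) and without the cluster found in library a (adjusted p = 0.0737). The marker of division mattered: with S phase genes in place of Mki67 and Top2a, 5 regulators were called, where 3527 of all 8590 genes tested were. In that setting Ccnd1 stood at -0.22 (adjusted p = 0.529) and Cdkn1b at -0.12 (adjusted p = 0.797). Thinned to 1000 UMIs, with the cells chosen again from the thinned counts, Cdkn1b was not called either (0.34, adjusted p = 0.419). Cdkn2d, at 0.27 (SE 0.12, adjusted p = 0.0797), was not called. All 18 S phase genes were still lower in this comparison, with a median of -1.97, and their part in it was not tested.

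**Figure D2:**
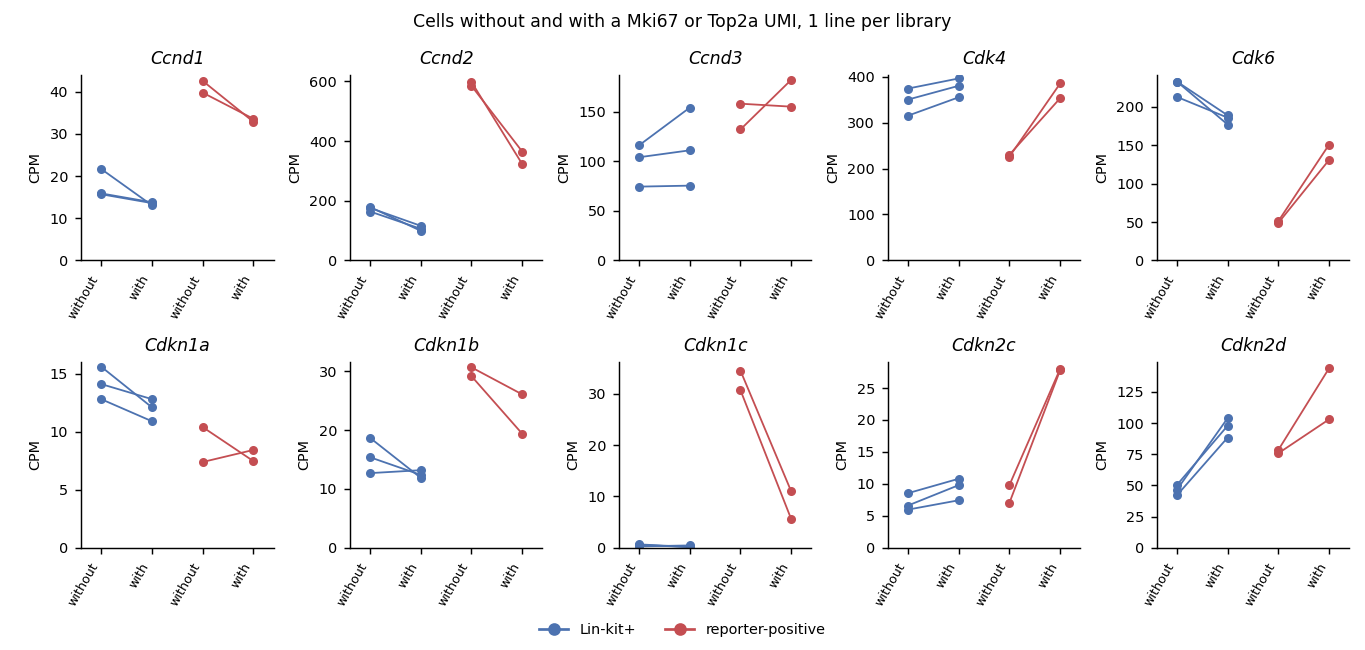
Level of each gene in CPM (vertical axes from 0) in cells without and with a Mki67 or Top2a UMI, with 1 line per library, blue for Lin-kit+ and red for reporter-positive. Cdk6 falls from 213 to 233 CPM to 177 to 189 CPM along the blue lines and rises from 49.0 and 51.3 CPM to 131 and 151 CPM along the red.

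Within each population, cells with and without a Mki67 or Top2a UMI were then compared, with both sums of a library paired. In Lin-kit+, 4 regulators were higher in cells with such a UMI and 2 were lower, where 15.3% of all genes were called higher and 12.8% lower. In reporter-positive cells, 4 were higher and 2 lower, where 9.82% and 7.22% were. When every cell was thinned to 1000 UMIs, which left 48 and 44 reporter-positive cells with such a UMI, edgeR called 4 members in Lin-kit+ and 1, Ccnd2, in reporter-positive cells and for the difference between populations. At full depth 132 and 77 reporter-positive cells held such a UMI. The split was drawn again from the thinned counts, so cells that lost these UMIs by thinning counted as cells without. Thinned values of the split thus differ from the main ones in depth and in the cells compared. Of all 8244 genes tested when thinned, 659, 358 and 161 were called in these comparisons. Their median log2 fold changes were then -0.07, -0.36 and -0.23, against 0.01, -0.05 and -0.00 in the main fits.

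Ccnd2 was lower in cells with division transcripts in both populations. In Lin-kit+ a, b and c it measured 99.3, 106 and 116 CPM with and 179, 164 and 176 CPM without, lower in 3 of 3 libraries (log2 fold change -0.63, SE 0.06, edgeR adjusted p = 7.01e-10). In Fgd5+ and HSC-Fgd5+ it measured 365 and 323 CPM with and 585 and 598 CPM without (-0.82, SE 0.08, edgeR adjusted p = 6.97e-09). The difference between the populations' effects was -0.19 (SE 0.10, adjusted p = 0.31). It was -1.14 (adjusted p = 0.00671) when thinned and 0.39 (adjusted p = 0.0135) with S phase genes as the mark. Ccnd1 was not called in either population, at -0.25 (SE 0.10) and -0.39 (SE 0.22). Ccnd3 was called higher in Lin-kit+ at 0.20 (SE 0.07, edgeR adjusted p = 0.0227), with 154, 111 and 75.4 CPM against 116, 104 and 74.4 CPM, and lost the call without library a (0.09, adjusted p = 0.293) or library c (0.28, adjusted p = 0.0563) and with S phase genes as the mark (-0.00, adjusted p = 0.991).

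In sums over all cell classes, Cdk6 took opposite directions in the populations. Lin-kit+ cells with division transcripts had 177, 189 and 186 CPM and those without 233, 233 and 213 CPM, lower in 3 of 3 libraries (-0.24, SE 0.05, edgeR adjusted p = 0.000842). Fgd5+ and HSC-Fgd5+ cells had 151 and 131 CPM with and 51.3 and 49.0 CPM without, higher in both libraries (1.45, SE 0.13, edgeR adjusted p = 6.68e-10). The difference of these effects was 1.69 (SE 0.14, edgeR adjusted p = 3.67e-10), where 5.76% of all genes were called higher and 2.05% lower in the same contrast. Thinned to 1000 UMIs, neither the reporter-positive effect of Cdk6 (1.08, adjusted p = 0.203) nor the difference (1.45, adjusted p = 0.0842) passed the test. Within single Lin-kit+ classes Cdk6 was called only in erythroid-like cells (-0.67), and not there with cluster in the block (-0.26, edgeR adjusted p = 0.19). In the other classes fitted it lay between -0.29 and 0.04. Division transcripts were found in 70.4% of monocyte-like and 31.3% of erythroid-like cells, where Cdk6 averaged 176 and 353 CPM. The part of this class mix in the Lin-kit+ effect was not tested. Cdk4 was higher with division transcripts in both, by 0.17 (SE 0.05) in Lin-kit+ and 0.62 (SE 0.08) in reporter-positive cells, and this difference was called too (0.45, SE 0.09, edgeR adjusted p = 0.00153). Without library c the Lin-kit+ call of Cdk4 was lost (0.19, adjusted p = 0.081). It was also lost when thinned (-0.01, adjusted p = 0.984) and inside monocyte-like (-0.00, adjusted p = 0.997) and neutrophil-like cells (-0.08, adjusted p = 0.664). Thinned, the reporter-positive effect of Cdk4 was 0.44 (adjusted p = 0.463) and the difference 0.45 (adjusted p = 0.606), and with S phase genes as the mark the difference was 0.14 (adjusted p = 0.554). S phase genes moved along with these differences. Their median effect was 0.38 in Lin-kit+, with 11 of 18 called higher, and 1.82 in reporter-positive cells, with 18 of 18. Their part in the Cdk4 and Cdk6 differences was not tested.

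Both INK4 genes were higher in cells with division transcripts. Cdkn2c rose in reporter-positive cells from 7.04 and 9.81 CPM to 27.8 and 28.0 CPM (1.74, SE 0.31, edgeR adjusted p = 7.92e-05). In Lin-kit+ it rose from 8.54, 6.61 and 5.97 CPM to 10.8, 9.80 and 7.43 CPM (0.46, SE 0.14, edgeR adjusted p = 0.0155), and the effects differed by 1.29 (SE 0.34, edgeR adjusted p = 0.0127). These calls of Cdkn2c depended on single libraries: that in Lin-kit+ was lost without library b or c (adjusted p = 0.137 and 0.0785), that in reporter-positive cells without Fgd5+ (0.0987), and that of the difference without Fgd5+ (0.479). Thinned to 1000 UMIs, all 3 were lost, at 0.75 in Lin-kit+ (adjusted p = 0.296), -0.41 in reporter-positive cells (adjusted p = 0.953) and -1.16 for the difference (adjusted p = 0.901). With S phase genes as the mark they were lost too, at -0.13 (adjusted p = 0.732), 0.96 (adjusted p = 0.0742) and 1.08 (adjusted p = 0.138). Cdkn2d rose in Lin-kit+ from 42.1, 50.4 and 46.6 CPM to 88.4, 97.9 and 104 CPM (1.12, SE 0.06, edgeR adjusted p = 1.23e-14). In reporter-positive cells it rose from 75.8 and 78.5 CPM to 103 and 144 CPM (0.55, SE 0.14, edgeR adjusted p = 0.00394), a smaller effect by 0.57 on the log2 scale (SE 0.15, edgeR adjusted p = 0.0114). Within single Lin-kit+ classes, a rise of Cdkn2d was called only in monocyte-like and neutrophil-like cells. Without HSC-Fgd5+ the reporter-positive call was lost (0.39, adjusted p = 0.133), and the difference lost its call without library c (adjusted p = 0.144) or Fgd5+ (adjusted p = 0.542). Both were also lost when thinned (0.76 and -0.17, adjusted p = 0.433 and 0.965) and with S phase genes as the mark (0.13 and -0.13, adjusted p = 0.651 and 0.744). With DESeq2 in place of edgeR, 0 members were called lower for the difference, so that of Cdkn2d was not.

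The CIP/KIP genes were lower or not called. Cdkn1c fell in reporter-positive cells from 34.5 and 30.7 CPM without division transcripts to 11 and 5.60 CPM with them (13 and 3 UMIs), a log2 fold change of -1.90 (SE 0.35, edgeR adjusted p = 0.000133), a call lost when thinned (adjusted p = 0.298). In Lin-kit+, with 9 UMIs in cells with and 11 in cells without, it was not called. Cdkn1b stood at -0.20 (SE 0.11) in Lin-kit+ and -0.52 (SE 0.27) in reporter-positive cells, and Cdkn1a at -0.22 (SE 0.11) and -0.10 (SE 0.43), none of them called. Reporter-positive cells that held a Cdkn1c UMI had 38.3 CPM of Cdk6 in Fgd5+ (95% interval 23.7 to 58.6) against 85.9 CPM in the rest (76.6 to 96.0), and 36.8 (15.9 to 72.4) against 72.9 CPM (61.4 to 85.9) in HSC-Fgd5+. These intervals cover counting error only, and those of the HSC-Fgd5+ pair overlapped.

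Of the named lists, 17 of 17 mitosis genes were higher with division transcripts in Lin-kit+, led by Nusap1 (3.11, SE 0.07), Kif11 (2.72, SE 0.12), Prc1 (2.72, SE 0.09), Ube2c (2.50, SE 0.08) and Plk1 (2.34, SE 0.09), genes of the spindle and mitotic exit. Mki67 and Top2a, which chose the cells, are known to be transcribed with these genes. Of 30 G1/S partners, 13 were higher and 1 lower, the E2F partner Tfdp2 (-0.39, SE 0.11). Of 14 p53 and FoxO partners tested, 5 were lower and the other 9 were not called, and the lower ones included Trp53inp1 (-1.14, SE 0.26), the antiproliferative gene Btg2 (-0.80, SE 0.07), Foxo1 (-0.77, SE 0.28) and Foxo3 (-0.51, SE 0.13).

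The mixed Lin-kit+ libraries were then divided into cell classes, by clustering without the 10 regulators and naming clusters from marker lists. The levels are described without a test. D cyclin use differed by class. Ccnd1 was highest in dendritic-like cells, at 225, 152 and 150 CPM in libraries a, b and c (mean 176 ± 42.7, SD, n = 3), and 2 UMIs were counted in 2505 neutrophil-like cells. Ccnd2 led in lymphoid-primed multipotent-like (286 ± 13 CPM), erythroid-like (269 ± 31.6) and megakaryocyte-like cells (264 ± 19.3), which lay within their spread of each other, and was lowest in neutrophil-like cells (21.8 ± 4.94). Ccnd3 was at 219 ± 70.1 CPM in dendritic-like and 206 ± 74.2 CPM in neutrophil-like cells, again within the spread between libraries, and at 53.3 ± 7.71 and 53 ± 17.3 CPM in erythroid-like and granulocyte-monocyte progenitor-like cells.

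**Figure D3:**
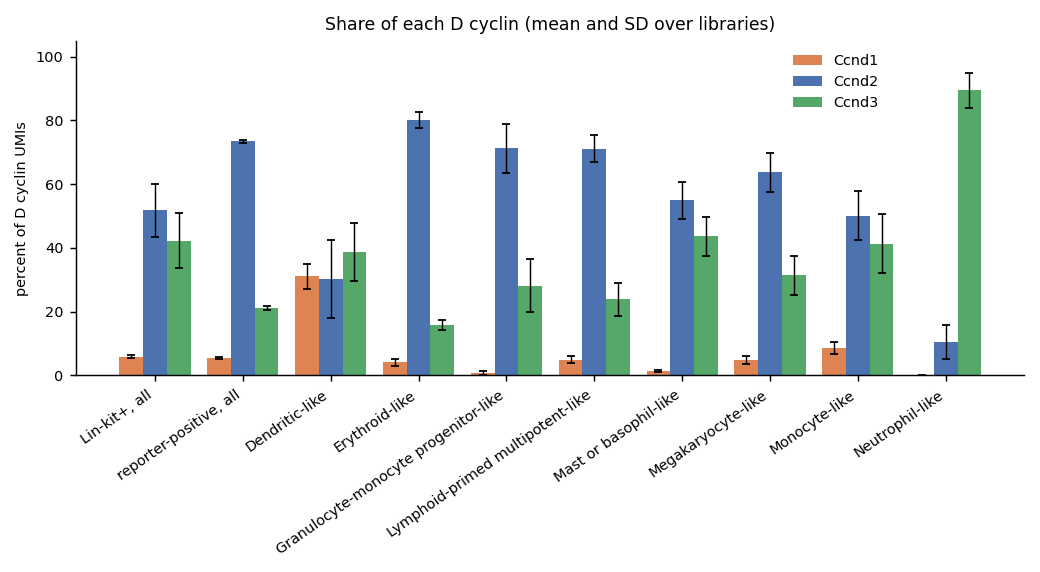
Share of each D cyclin among all D cyclin UMIs, in percent. Bars are means and error bars SDs over 3 Lin-kit+ libraries (2 for reporter-positive), for both populations as a whole and for the Lin-kit+ cell classes. Ccnd3 gives 89.4% in neutrophil-like cells, and Ccnd2 80.1% in erythroid-like and 73.4% in reporter-positive cells.

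Expressed as shares of D cyclin UMIs, neutrophil-like cells used Ccnd3 for 89.4% ± 5.35 (SD, n = 3) and erythroid-like cells Ccnd2 for 80.1% ± 2.40. Dendritic-like cells drew on all 3 genes, with Ccnd1 at 31.1% ± 4.0, Ccnd2 at 30.2% ± 12.2 and Ccnd3 at 38.7% ± 9.15. Reporter-positive cells used Ccnd2 for 73.4% ± 0.482 (SD, n = 2).

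The kinases and inhibitors varied by class as well. Cdk6 was highest in megakaryocyte-like (389 ± 60.2 CPM), mast or basophil-like (366 ± 28.3) and erythroid-like cells (353 ± 24.5), which overlapped, and lowest in dendritic-like cells (37.3 ± 27.8). Cdk4 ranged from 512 ± 55.9 CPM in lymphoid-primed multipotent-like cells to 132 ± 6.40 in neutrophil-like cells. Cdkn1a stood at 40.1, 45.8 and 42.1 CPM in lymphoid-primed multipotent-like cells (42.7 ± 2.88) and at or under 14.9 ± 1.62 CPM, the monocyte-like level, in the other classes. Cdkn1b was highest in dendritic-like cells (41.5 ± 3.64 CPM). Cdkn2d was highest in dendritic-like (209 ± 32.9 CPM) and neutrophil-like cells (156 ± 14.4), above megakaryocyte-like cells (115 ± 8.76), and lowest in granulocyte-monocyte progenitor-like cells (25.8 ± 3.33). Cdkn2c lay between 5.59 and 16.1 CPM in every class.

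**Figure D4:**
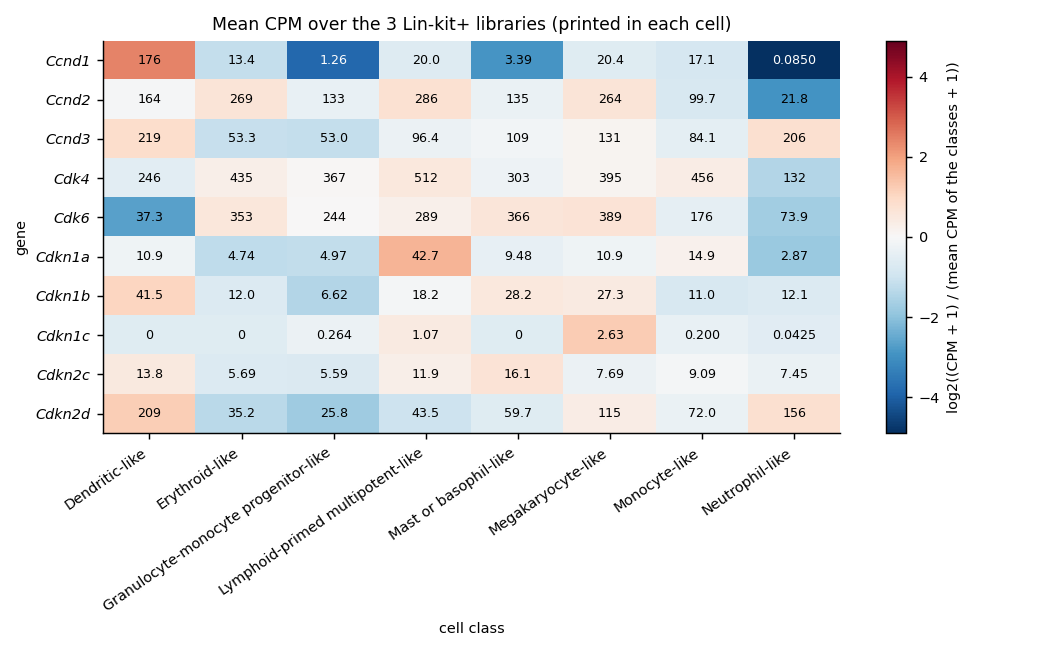
Mean CPM over the 3 Lin-kit+ libraries of each gene (rows) in each cell class (columns), printed in the cells. Color is the log2 ratio of the class to the mean of the classes, with 1 CPM added to both. Dendritic-like cells stand out for Ccnd1 (176 CPM), lymphoid-primed multipotent-like cells for Cdkn1a (42.7 CPM) and neutrophil-like cells for low Ccnd1 and Ccnd2.

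Across 16 clusters with at least 50 cells, the genes whose level was most like each regulator's were found among 7310 genes by Pearson's r of log2(CPM + 1). Clusters of 1 class share libraries and depth, so r is descriptive. Cdkn1c was most like Clec1a (0.975), Ndn (0.948) and Tgm2 (0.947), Cdk4 like Prmt1 (0.969), Nutf2 (0.967) and Tcp1 (0.961), and Ccnd2 like Lztfl1 (0.964), Rps27 (0.962) and Cep97 (0.956). Ccnd1 was most like Arl6 (0.961), Dnajc7 (0.927) and Ep300 (0.922), and Cdkn1b like Klhl6 (0.937), Arrdc1 (0.931) and Zyx (0.927). For Cdk6 these were Icam2 (0.880), Haus3 (0.872) and Ppid (0.871), and for Cdkn2c H2afx (0.866), Arl6ip1 (0.861) and Calm2 (0.845). For Cdkn1a they were Flt3 (0.862), Tmem206 (0.857) and Bcl2 (0.851), for Cdkn2d Rgs14 (0.859), Was (0.832) and Ccdc82 (0.815), and for Ccnd3 Lrrfip1 (0.823), Hcls1 (0.812) and Zyx (0.809).

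Finally, cells with and without division transcripts were compared inside the 5 classes with at least 30 cells of each kind in each library, a comparison added after the data were seen. Cdkn2d is given first. In monocyte-like cells it was at 69.7, 83.9 and 95.6 CPM with division transcripts and 32.8, 41.0 and 33.4 CPM without in libraries a, b and c (log2 fold change 1.28, SE 0.11, edgeR adjusted p = 3.54e-08). In neutrophil-like cells it was at 166, 200 and 188 CPM against 63.2, 108 and 90.6 CPM (1.09, SE 0.08, edgeR adjusted p = 1.5e-12). It was not called in lymphoid-primed multipotent-like (0.24, edgeR adjusted p = 0.356) or granulocyte-monocyte progenitor-like cells (0.28, edgeR adjusted p = 0.595). In erythroid-like cells it was at 22.1, 18.2 and 23.5 CPM against 48.0, 45.8 and 59.5 CPM, lower in 3 of 3 libraries (-1.36, SE 0.22, edgeR adjusted p = 0.000318). The erythroid-like class, however, joined clusters 9 and 14, which held 32.1% and 67.9% of its cells with division transcripts and 87.0% and 13% of those without, at median depths of 2573 and 8239 UMIs over all libraries. With library and cluster as a block, the erythroid-like effect was -0.65 (SE 0.32, edgeR adjusted p = 0.245), not a call, from 51 Cdkn2d UMIs in cells with and 106 in cells without. In 1 fit over the 5 classes, the erythroid-like effect minus the mean of the monocyte-like and neutrophil-like effects was -2.53 (SE 0.25, edgeR adjusted p = 1.81e-13), where 7.15% of all genes were called higher and 7.94% lower. The classes in this contrast were chosen after the data were seen, and the adjusted p does not allow for that choice. Classes or clusters of the same library also entered these fits as separate blocks, so the adjusted p does not measure spread between libraries alone. The remaining classes were left out of the contrast. With clusters in place of classes in the block the contrast was -1.76 (SE 0.31, edgeR adjusted p = 2.05e-05), where 1.24% of all genes were called in either direction.

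**Figure D5:**
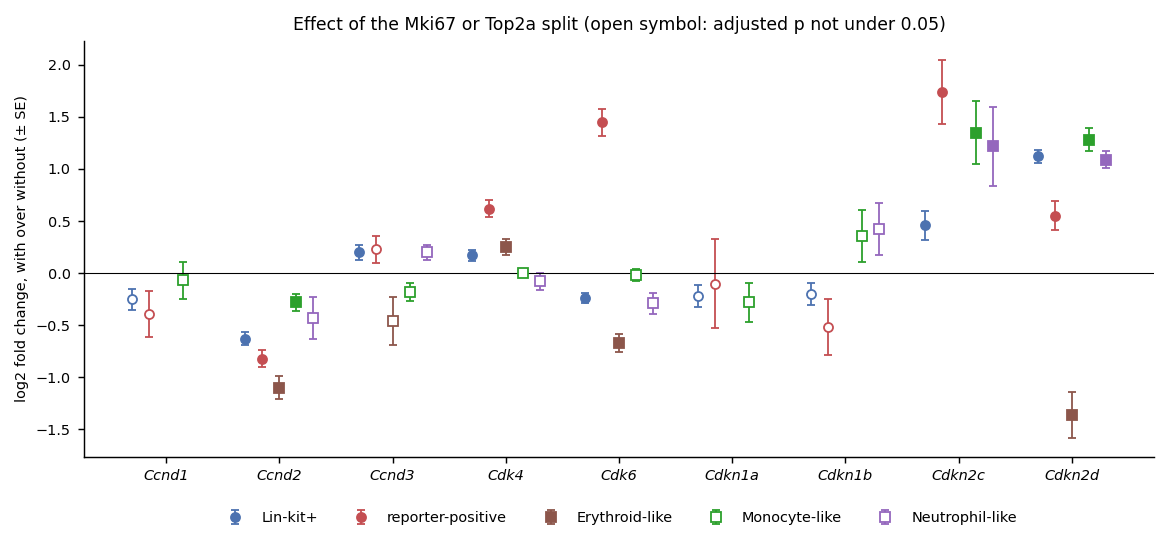
Log2 fold change of cells with over cells without a Mki67 or Top2a UMI (vertical axis, ± SE) for 9 genes. Circles are the populations and squares the erythroid-like, monocyte-like and neutrophil-like Lin-kit+ classes, open where the edgeR adjusted p was not under 0.05. Genes filtered out of a class have no symbol. Cdkn2d lies at 1.28 and 1.09 in monocyte-like and neutrophil-like cells and at -1.36 in erythroid-like cells, where the call was lost with cluster as a block (-0.65), and Cdk6 at 1.45 in reporter-positive cells.

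The other regulators within classes were as follows. Ccnd2 was lower with division transcripts in erythroid-like (-1.10, SE 0.11), lymphoid-primed multipotent-like (-0.40, SE 0.07) and monocyte-like cells (-0.28, SE 0.08), at 180, 162 and 201 CPM against 300, 397 and 399 CPM in the first. Cdk6 was called lower in erythroid-like cells (-0.67, SE 0.09) and lay between -0.29 and 0.04 in the other classes, where it was not called. With library and cluster as a block, the erythroid-like effect remained called for Ccnd2 (-0.63, SE 0.13, edgeR adjusted p = 0.000452) and not for Cdk6 (-0.26, adjusted p = 0.19) or Cdk4 (0.11, adjusted p = 0.65), where 7.11% of all genes were called. Between the clusters, cells without division transcripts had 466, 512 and 470 CPM of Cdk6 in cluster 9 and 240, 272 and 255 CPM in cluster 14. Cdkn2c was higher in monocyte-like (1.35, SE 0.30) and neutrophil-like cells (1.22, SE 0.38). In the joint fit of the classes, the neutrophil-like call of Cdkn2c was lost (1.25, SE 0.41, edgeR adjusted p = 0.0512). With clusters in place of classes in the block it was 0.94 (SE 0.42, edgeR adjusted p = 0.3). The monocyte-like effect of Cdkn2c stayed called in these fits (1.32 and 1.34, edgeR adjusted p = 0.00751 and 0.00447). Cdk4 was higher in erythroid-like (0.25, SE 0.08) and lymphoid-primed multipotent-like cells (0.26, SE 0.06). In granulocyte-monocyte progenitor-like cells edgeR called 0 members, with 1 (Cdk4) at an unadjusted p under 0.05. The share of all genes called in either direction was 29.3% in erythroid-like, 20.2% in lymphoid-primed multipotent-like, 8.13% in monocyte-like, 7.93% in neutrophil-like and 2.52% in granulocyte-monocyte progenitor-like cells.

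In GRCm38 with the GENCODE M21 annotation, Cdk4 spans chr10:127063534-127067920 and Cdk6 chr5:3341485-3531008 on the + strand, Cdkn1c chr7:143458339-143461050 and Cdkn2d chr9:21288410-21291407 on the - strand, and Ccnd2 chr6:127125162-127152193 on the - strand. Whether counting used strand is not given in the sources used here, so reads of overlapping genes on the opposite strand may not be told apart. These were Tspan31 for Cdk4 (4504 UMIs in all libraries), Bysl for Ccnd3 (1564) and Gm17590 for Cdk6 (484). Gm17590 moved with Cdk6, at 6.90 to 7.68 CPM in Lin-kit+ and 0.960 and 0 CPM in Fgd5+ and HSC-Fgd5+. Ccnd3 also has an annotated pseudogene copy, Ccnd3-ps.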

How the data were processed

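Bone marrow cells were profiled with the Chromium 3′ v2 kit. Reads pooled by the authors from consecutive runs went through their Cell Ranger analysis, and the deposited table holds raw UMI counts. The submitters' processing notes name mm10, Cell Ranger 1.3 and 2.1 and Seurat 2.3.4 without saying which step used which. Barcode suffixes were matched to populations by cell numbers (793 and 519 for the reporter-positive libraries). Members, lists and comparisons were chosen with earlier results of these data known.

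The deposited counts were summed per library, or per library and cell kind, and tested with edgeR 4.0.16 (R 4.3.3, TMM, filterByExpr, quasi-likelihood test, Benjamini-Hochberg adjustment, threshold 0.05). SEs are the log2 fold change over the root of F. Cells with at least 1 UMI of Mki67 or Top2a were compared with the rest with library as a block, since both sums come from the same library, in 1 fit of all libraries. Where S phase genes were the mark, cells with UMIs of more than 1 of Mcm3, Mcm5, Mcm6, Pcna, Rrm2 and Tyms were compared with cells without any. Cells with UMIs of just 1 of these genes were left out. The pairing of the 2 sums comes from the design and not from replicate numbers. Fits were tested on simulated data. Depth per library was 2166655 to 36080242 UMIs, and intervals (95%, Poisson, binomial for ratios, Wilson for shares) cover counting error only.

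Cells were clustered on 20 principal components of 2000 variable genes (the members, Mki67, Top2a and Fgd5 left out) with 15 neighbours and Leiden at resolution 1 (leidenalg 0.10.2, scanpy 1.11.5, numpy 2.4.6, Python 3.11.15), giving 17 clusters. Naming a cluster took 3 or more markers of 1 list, each present in 5% of its cells and 2-fold above the remaining cells. Class levels needed 20 cells per library. Scrublet called 165 doublets (1.28%), which were kept. Named list genes were up to 5 in each direction with the largest change past the threshold and at least 100 UMIs, and nearest genes were the 3 with the highest r among genes with at least 500 UMIs. Alternatives covered DESeq2 1.42.0, scaling, filters, doublets, thinning, the choice of division genes, the block (by cluster too, added after the data were seen) and each library left out.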

Additional observations from a re-analysis of the deposited data

Results flagged for a closer look

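The following effects of the Mki67 or Top2a split differed between groups by a test of the difference itself. Between populations (reporter-positive minus Lin-kit+, log2), the differences were 1.69 for Cdk6, 1.29 for Cdkn2c, 0.45 for Cdk4 and -0.57 for Cdkn2d. Between cell classes (erythroid-like minus the mean of monocyte-like and neutrophil-like, log2), they were -2.53 for Cdkn2d, -2.28 for Cdkn1a, -1.50 for Cdkn1b, -0.73 for Ccnd2, -0.48 for Cdk6 and 0.31 for Cdk4. The classes in this contrast were chosen after the data were seen. Classes or clusters of the same library entered its fits as separate blocks, so their tests do not measure spread between libraries alone. The Cdkn1a and Cdkn1b values rest on 26 and 49 UMIs in erythroid-like cells, and both genes were filtered out when that class was fitted alone. The erythroid-like class joins a pair of clusters that share its cells with and without these UMIs unequally. With library and cluster as a block, the difference between classes was called for Cdkn2d (-1.76, adjusted p = 2.05e-05) and not for Cdkn1a (-1.85, adjusted p = 0.376), Cdkn1b (-0.42, 0.882), Ccnd2 (-0.52, 0.0829), Cdk6 (-0.31, 0.29) or Cdk4 (0.02, 0.991). When cells were thinned to 1000 UMIs, none of the 4 differences between populations was called. With DESeq2, 3 members were called higher and 0 lower for the difference between populations. The cause of these differences was not tested.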

How the results depend on the processing

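Of 729 values of single members under alternatives other than single classes, 667 kept their side of the threshold, and where called their direction. Another 43 lost a call, 9 gained one and 10 turned direction with a call on at least one side. Values not called in either setting counted as kept whatever their direction. Genes called, over all genes, went in the population comparison from 7567 to 4392 when cells were thinned to 1000 UMIs, and among cells without division transcripts from 6314 to 4121 when thinned and to 3527 with S phase genes in place of Mki67 and Top2a. For the split in Lin-kit+ the count went from 3272 to 1483 with DESeq2 and 659 when thinned, in reporter-positive cells from 1980 to 358 when thinned, and for the difference of effects from 907 to 161 when thinned. When thinned, 1 member was called in reporter-positive cells and 1 for the difference, against 6 and 4. With DESeq2, 4 members were called for the Lin-kit+ split, against 6. Among cells without division transcripts 6 were, against 7, and for the difference 3, against 4. For the split, thinning changed depth and the choice of cells together, and their parts were not tested. At 1000 UMIs per cell, with 48 and 44 reporter-positive cells that held such a UMI, Cdk6 gave 1.08 there (adjusted p = 0.203).

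Without the pairing of sums within a library (no replicate block), 1118 genes and 2 members were called in Lin-kit+ and 1204 genes in reporter-positive cells. With 1 library left out at a time, calls in Lin-kit+ ran from 1614 (3 members, without library c) to 3524, in reporter-positive cells from 817 (without Fgd5+) to 2053 and for the difference of effects from 418 (2 members, without Fgd5+) to 1014. Library totals moved the share of calls that were higher to 75.1% from 52.6% among cells without division transcripts, to 40.4% from 54.4% for the Lin-kit+ split and to 86.9% from 73.8% for the difference of effects.

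Directions turned as follows. Cdkn2d was 0.17 in the population comparison under library totals, where the median of all genes was 0.60. With S phase genes, Ccnd1 was -0.22 and Cdkn1b -0.12 among cells without division transcripts, Ccnd3 -0.00 and Cdkn2c -0.13 for the Lin-kit+ split, and Ccnd1 1.44 and Ccnd2 0.39 for the difference of effects. When thinned, Cdk4 was -0.01 for the Lin-kit+ split, and Cdkn2c -0.41 in reporter-positive cells and -1.16 for the difference. The medians of all genes in these thinned comparisons were -0.07, -0.36 and -0.23. Within single classes, the Lin-kit+ split called 1609 genes in erythroid-like cells (236, 1 member and Cdkn2d at -0.65 with cluster in the block), 179 (0 members) in granulocyte-monocyte progenitor-like, 1511 (2) in lymphoid-primed multipotent-like, 729 (3) in monocyte-like and 539 (2) in neutrophil-like cells. There, Ccnd3 was -0.46 and Cdkn2d -1.36 in erythroid-like cells, Ccnd2 0.12, Ccnd3 -0.16 and Cdk6 0.04 in granulocyte-monocyte progenitor-like cells, Ccnd3 -0.18 and Cdk4 -0.00 in monocyte-like cells and Cdk4 -0.08 in neutrophil-like cells. The causes were not tested.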

Other observations

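With S phase genes in place of Mki67 and Top2a as the mark of division, Lin-kit+ cells with such transcripts had less Ccnd1 (log2 fold change -0.98, edgeR adjusted p = 9.85e-07) and less Cdkn1b (-1.05, edgeR adjusted p = 3.96e-06), neither of which was called with Mki67 and Top2a. The cells without numbered 130, 583 and 675 in libraries a, b and c. Their median depths were 3581, 2158 and 2671 UMIs, against 7478, 5086 and 6203 in cells with such transcripts. Among the named classes, both genes were highest in dendritic-like cells (176 and 41.5 CPM). The parts of depth and class mix in these effects were not tested. In both reporter-positive libraries, cells with a Cdk6 UMI more often held a Mki67 or Top2a UMI, at 39.5% against 9.70% in Fgd5+ and 32.3% against 10.9% in HSC-Fgd5+. Their median depth was also higher, at 6585 against 4080 and 5189 against 3492 UMIs. The part of depth in this was not tested.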
